A study of Mus musculus with 6 samples.

Results

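ADAMTS aggrecanases and the tissue inhibitors of metalloproteinases (TIMPs) were followed in tibial cartilage of mice with Adam10 targeted for deletion in the Col2a1 lineage. The set holds 9 genes, the 5 aggrecanase genes Adamts1, Adamts4, Adamts5, Adamts9 and Adamts15 and the 4 inhibitor genes Timp1, Timp2, Timp3 and Timp4. They were found through the RefSeq accession of every non-control probe, which gave 11 probes of the 55681 on the array. Adamts5 and Timp2 had 2 probes each and the other genes had 1. All 11 probes passed the filter on dim signal, for which Feature Extraction had to mark a probe as well above background on 3 or more arrays. Each gene was tested on its brightest probe, among 30270 features in all.

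RNA came from the tibial cartilage of C57BL/6 mice and was hybridised to Agilent 1-colour expression arrays. The mutants were 3 mice labelled ADAM10 flox/flox-Col2a1-Cre, in which both Adam10 alleles are flanked by loxP sites and a Cre recombinase is driven by the Col2a1 promoter, active in chondrocytes and their precursors. The controls were 3 separate mice labelled only as control, so whether they carry floxed alleles or Cre is not given, and neither is age or sex. The comparison asks which transcripts differ in cartilage when the gene of this membrane protease is targeted for deletion in chondrocytes.

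Aggrecan is the large proteoglycan that holds water in cartilage, and ADAMTS aggrecanases are secreted zinc proteases that cut its core protein. ADAMTS4 and ADAMTS5 are the aggrecanases best known for cartilage breakdown, and loss of Adamts5 activity protects mice from surgically induced osteoarthritis. TIMPs are small secreted proteins that block the active site of metalloproteinases, and TIMP3 is the main natural inhibitor of ADAMTS4 and ADAMTS5. TIMP1 and TIMP3 also inhibit ADAM10 itself, and TIMP3 inhibits the related sheddase ADAM17.

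The arrays shared 1 slide and 1 scan. The share of spots well above background ran from 62.4% to 65.4%, with 0 saturated spots. Adam10 read 0.15, -1.70 and 0.31 in mutants 1 to 3, against 1.61, 1.58 and 1.21 in controls 1 to 3, on the log2 scale relative to the array's 75th percentile that is used throughout. Its difference of -1.88 (SE 0.53) had an unadjusted p of 0.0104 and a Benjamini-Hochberg adjusted p of 0.994 in the limma fit across all features. The floxed exon is not named in the labels, so whether the probe lies in the deleted region is not known. The source of the Adam10 signal left in mutants was not tested. All 12 chondrocyte markers were well above background on every array, Col2a1 and Acan among them. Markers of bone, marrow, vessels and muscle were also detected. On the first principal component mutant 2 (75.3) and control 1 (-59.7) stood apart from the other 4 arrays (-17.5 to 17.9). Xist exceeded the Y-linked Ddx3y on mutant 3 and control 1, and Ddx3y exceeded Xist elsewhere.

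No difference between mutants and controls in the 9 genes passed the test against the spread between mice. In the limma fit 0 of 9 passed an adjusted p below 0.05, the same as for all features, where 0 of 30270 (0%) did. At an unadjusted p below 0.05 there were again 0 of 9 genes, against 3.41% of all features (1.64% higher and 1.77% lower). The signals of the 2 groups overlapped for every one of the 9 genes, and they were separate for 8.76% of all features (5.23% higher and 3.53% lower in mutants). With shares this small, 0 of 9 does not set these genes apart. Of the 5 aggrecanases 4 had a difference below 0, with a median of -0.42, and of the 4 TIMPs 3 had a difference above 0, with a median of 0.12. Over all features 40.2% of differences were below 0 and 59.8% above, and the median was 0.04. Without mutant 2, 2 of the 5 aggrecanases were below 0 and the aggrecanase median was 0.04, while the TIMP median was 0.22.

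**Figure D1:**
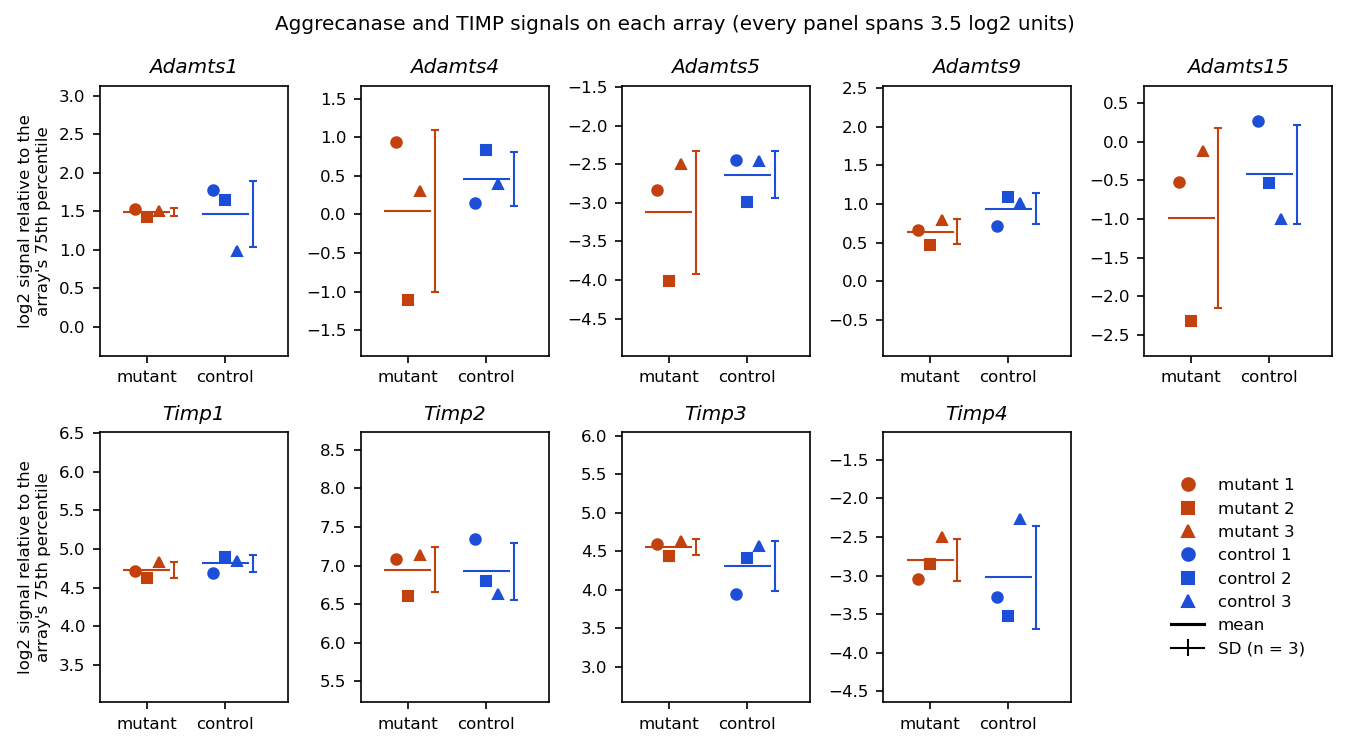
Log2 signal of each gene (y axis, relative to the 75th percentile of the array) on every mutant and control array, with the group mean as a line and the SD of 3 mice as a bar beside it. Mutant 2, the orange square, lies far below the other 5 arrays for Adamts4, Adamts5 and Adamts15, and the TIMP panels show no such gap.

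Adamts5, the aggrecanase most tied to cartilage loss in mice, gave a dim signal in this tissue. Its brighter probe read -2.84, -4.02 and -2.50 in mutants 1 to 3, against -2.45, -2.99 and -2.46 in controls 1 to 3. Mutant 2 was 2.04-fold below the lowest of the other arrays, and mutants 1 and 3 lay within the range of the controls. The group means were -3.12 ± 0.80 in mutants and -2.64 ± 0.31 in controls (SD, n = 3 each), a difference of -0.48 (SE 0.40, 95% interval -1.45 to 0.48). This is a fold of 0.715, with limits of 0.365 and 1.40, and its adjusted p in limma was 0.994. The second Adamts5 probe read -3.21, -5.21 and -2.83 in mutants 1 to 3, against -2.59, -3.44 and -3.43 in controls 1 to 3. It was also lowest on mutant 2, where it was not well above background, and its difference was -0.60 (SE 0.63). Without mutant 2 the Adamts5 difference was -0.03.

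Adamts4, an aggrecanase induced by inflammatory cytokines, read 0.94, -1.11 and 0.30 in mutants 1 to 3, against 0.15, 0.84 and 0.40 in controls 1 to 3. The highest and the lowest of the 6 values were both mutants, 4.15-fold apart. The difference was -0.42 (SE 0.51, 95% interval -1.65 to 0.81), and limma's adjusted p was 0.994. Leaving out mutant 2 turned it to 0.15. Within the first slide row, which held mutant 1 and the 3 controls, it was 0.48.

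Adamts15, which cleaves aggrecan and the related proteoglycan versican, spread most of the 9 genes on the probes tested, over 6.05-fold. It read -0.52, -2.32 and -0.12 in mutants 1 to 3, against 0.27, -0.53 and -1.00 in controls 1 to 3. Mutant 2 was again lowest, here 2.50-fold below the next array, and control 1 was highest. The mean was -0.99 ± 1.18 in mutants and -0.42 ± 0.64 in controls (SD, n = 3 each). The difference was -0.57 (SE 0.62, 95% interval -2.05 to 0.91), and without mutant 2 it turned to 0.10.

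Adamts9, a versican and aggrecan protease that is essential for mouse development, had the smallest p of the set. Its signals were 0.66, 0.47 and 0.79 in mutants 1 to 3, against 0.71, 1.09 and 1.01 in controls 1 to 3. Mutants 1 and 2 lay below every control, and mutant 3 lay between control 1 and control 3. The mean was 0.64 ± 0.16 in mutants and 0.94 ± 0.20 in controls (SD, n = 3 each), a difference of -0.30 (SE 0.16, 95% interval -0.67 to 0.08) or a fold of 0.815. The unadjusted p was 0.107, the adjusted p in limma was 0.994, and the exact permutation p was 0.2, where 3 arrays against 3 cannot give less than 0.1. Without mutant 2 the Adamts9 difference was -0.21. Its unadjusted p in limma was 0.0373 without control 1 and 0.0327 on the arrays with Ddx3y above Xist, with differences of -0.41 and -0.48. Both settings leave out control 1, the lowest control, and the Ddx3y setting also leaves out mutant 3, the highest mutant. Across all features 0 passed an adjusted p below 0.05 in either setting.

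Adamts1, a protease of versican and aggrecan that is also known as an inhibitor of vessel growth, was the aggrecanase with the closest group means. It read 1.53, 1.43 and 1.50 in mutants 1 to 3, against 1.77, 1.65 and 0.98 in controls 1 to 3. The mutants lay inside the range of the controls, with an SD of 0.05 in mutants and 0.43 in controls. The difference was 0.02 (SE 0.22), and its 95% interval allows a fold between 0.699 and 1.46. Without control 3 it turned to -0.23.

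**Figure D2:**
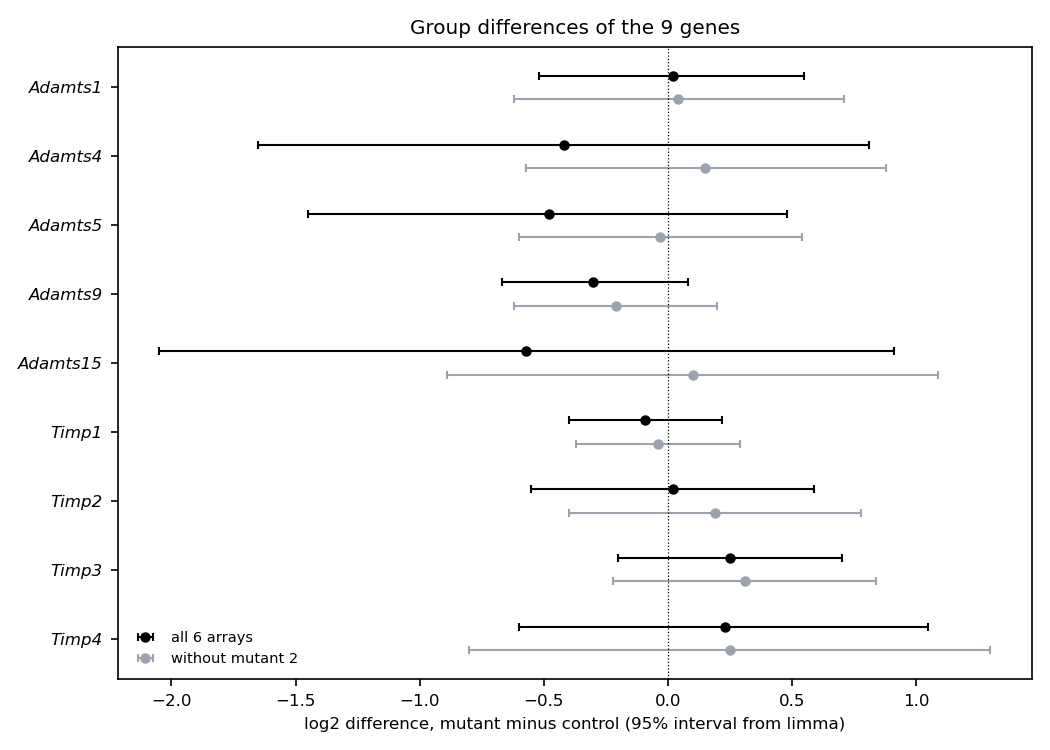
Log2 difference of each gene (x axis, mutant minus control) with its 95% interval from limma, for all 6 arrays in black and without mutant 2 in grey. Every interval includes 0, and the points of Adamts4 and Adamts15 move to the other side of 0 without mutant 2.

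The low aggrecanase readings on mutant 2 stood beside low readings for several cell types other than chondrocytes. The mean deviation of the 5 aggrecanases from their own means over the 6 arrays was 0.17, -0.90 and 0.20 in mutants 1 to 3, against 0.30, 0.23 and 0.00 in controls 1 to 3. On the same scale 10 osteoclast markers stood at -0.06, -1.91 and 0.10 in mutants 1 to 3, against 0.36, 0.83 and 0.69 in controls. Mutant 2 was also the lowest array for macrophages at -1.69, endothelium at -1.19, skeletal muscle at -2.45 and adipocytes at -1.94. It was the lowest array for 10 of 10 tested osteoclast genes, 9 of 9 for macrophages, 10 of 10 for endothelium, 9 of 10 for muscle and 7 of 7 for adipocytes. The osteoblast score was also lowest there, at -0.96, although 3 of the 7 osteoblast genes were lowest on that array. The chondrocyte score was highest there, at 0.41, with 11 of 12 markers at their highest. The hypertrophic chondrocyte score was at its lowest, -0.47, with 3 of its 6 genes highest and 2 lowest on mutant 2. Scores for megakaryocytes and platelets, fibroblasts and tendon, and smooth muscle and pericytes were lowest there, at -0.84, -0.36 and -0.60. Of their tested genes, only 3 of 7, 3 of 10 and 4 of 8 were lowest on that array. The fibroblast and tendon score was almost as low on control 3, at -0.33. Of the 8 smooth muscle and pericyte genes 2 were highest on mutant 2. The neutrophil, erythroid and B lymphocyte scores were not lowest there, at -0.63, -0.51 and -0.78. Mutant 2 was lowest for 0 of 9, 2 of 9 and 3 of 9 of their tested genes. Adam10 was also lowest on mutant 2, at -1.70. In bulk tissue fewer cells of a type and less RNA per cell cannot be told apart.

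Summed osteoclast signal, in multiples of the array's 75th percentile, was 33.6 on mutant 2 and 147 to 166 on the other mutants, against 242 to 332 in controls. For endothelium the sum was 27.7 on mutant 2 and 52.4 to 63.8 on the other mutants, against 52.9 to 68.0 in controls. For skeletal muscle it was 87.0 on mutant 2 and 312 to 473 on the other mutants, against 136 to 717 in controls. Of the osteoclast markers 9 of 10 were well above background on all 6 arrays, as were 10 of 10 for endothelium and 9 of 10 for muscle. The part of these cells in the aggrecanase readings was not tested. Of the 9 genes 6 were lowest on mutant 2, as were 18.4% of all features. The exceptions were Adamts1, Timp3 and Timp4. The gap to the next array was 2.39-fold for Adamts4, 2.04-fold for Adamts5 and 2.50-fold for Adamts15. It was only 1.15-fold for Adamts9, 1.05-fold for Timp1 and 1.01-fold for Timp2, whose second probe was lowest on control 3 instead.

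**Figure D3:**
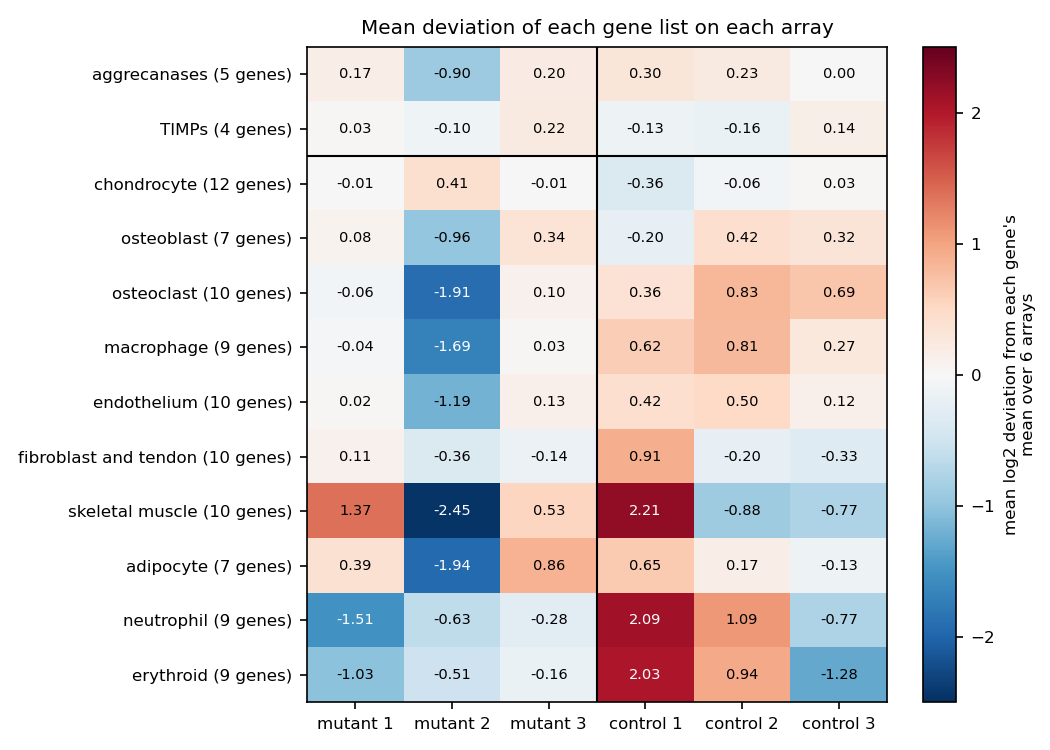
Mean log2 deviation of each gene list (rows, with the number of genes tested) on each mutant and control array (columns), relative to each gene's own mean over the 6 arrays. On mutant 2 the aggrecanases stand at -0.90 beside -1.91 for osteoclasts and 0.41 for chondrocytes, and the TIMPs stay between -0.16 and 0.22 on all arrays.

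Timp1, an inhibitor of most matrix metalloproteinases, spread least of the 9 genes. Its signals were 4.72, 4.62 and 4.83 in mutants 1 to 3, against 4.69, 4.90 and 4.85 in controls 1 to 3, a whole range of 1.22-fold. The mean was 4.72 ± 0.11 in mutants and 4.82 ± 0.11 in controls (SD, n = 3 each). The difference was -0.09 (SE 0.13), and its 95% interval runs from a fold of 0.760 to 1.16.

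Timp2, which inhibits MMP2 and together with MMP14 also takes part in activating it, was measured by 2 probes that gave differences near 0. The brighter probe read 7.09, 6.61 and 7.14 in mutants 1 to 3, against 7.34, 6.80 and 6.63 in controls 1 to 3, a difference of 0.02 (SE 0.24, 95% interval -0.55 to 0.59). The other probe read 3.11, 2.86 and 2.88 in mutants, against 3.13, 2.91 and 2.84 in controls, a difference of -0.01 (SE 0.14). Both probes were highest on control 1. The sign of the brighter probe depended on single arrays, with a difference of 0.23 without control 1 and -0.12 without control 3.

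Timp3, the matrix-bound inhibitor of aggrecanases, read 4.60, 4.44 and 4.63 in mutants 1 to 3, against 3.95, 4.41 and 4.57 in controls 1 to 3. Control 1 was the lowest array and the other 5 lay close together. The mean was 4.56 ± 0.10 in mutants and 4.31 ± 0.32 in controls (SD, n = 3 each), a difference of 0.25 (SE 0.19, 95% interval -0.20 to 0.70) or a fold of 1.19. Limma's unadjusted p was 0.224 and its adjusted p 0.994. Without control 1 the difference was 0.07.

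Timp4, the inhibitor with the narrowest tissue range in mice, gave a dim signal that was nonetheless well above background on every array. It read -3.04, -2.85 and -2.50 in mutants 1 to 3, against -3.28, -3.52 and -2.27 in controls 1 to 3. Control 3 was highest and the other controls were lowest, so the mutants lay inside the controls' range. The difference was 0.23 (SE 0.34, 95% interval -0.60 to 1.05). It was 0.60 without control 3, with an unadjusted p of 0.033 and an adjusted p of 0.949 in limma, and -0.02 without control 2 or within the first slide row.

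How far the genes varied over the 6 mice differed within the set. The SD over all arrays was 0.90 for Adamts15, 0.74 for Adamts4 and 0.60 for Adamts5, above 96.6%, 94.5% and 91.4% of all features. It was 0.11 for Timp1, above 10.3% of features, and the median feature had 0.22. Without mutant 2 the range of Adamts4 went to 1.74-fold and that of Adamts5 to 1.46-fold, while Adamts15 still spanned 2.42-fold. The processed signal was 36.8 to 108.3 intensity units over the 6 arrays for Adamts5 and 48.4 to 106.0 for Timp4.

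The balance of inhibitor and protease RNA was examined as log2 Timp3 minus log2 of each aggrecanase on the same array. Values were set to 0 at the control mean, and protein was not measured. These 5 comparisons were chosen after the values had been seen. The shift was largest for Adamts15, at 0.82 ± 1.08 in mutants (SD, n = 3), where the controls had an SD of 0.96, with an exact permutation p of 0.5. For Adamts5 it was 0.49, 1.52 and 0.19 in mutants 1 to 3, against -0.54, 0.46 and 0.08 in controls 1 to 3 (exact permutation p 0.2). For Adamts9 it was 0.56, 0.60 and 0.47 in mutants 1 to 3, against -0.13, -0.06 and 0.19 in controls 1 to 3. This was the only one of the 5 in which the groups did not overlap. Among all features taken singly, the groups were separate for 8.76%, and the share among ratios of other gene pairs was not computed. Its exact permutation p was 0.1, the smallest possible, and 0.5 after adjustment over the 5 comparisons.

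Several of these genes lie next to or inside other genes in RefSeq (assembly GRCm38.p6, which differs from the array's build, so only neighbours are given). Adamts1 and Adamts5 are adjacent on chromosome 16, yet mutant 2 was lowest for Adamts5 and within the controls' range for Adamts1. Adamts15 is adjacent to Adamts8 on chromosome 9. Adamts8, another ADAMTS protease, read -1.89, -3.83 and -1.98 in mutants 1 to 3, against -1.04, -2.63 and -2.88 in controls 1 to 3. Both neighbours were thus lowest on mutant 2 and highest on control 1. Timp1, Timp3 and Timp4 lie within the bounds of the synapsin genes Syn1, Syn3 and Syn2. Syn1 had a difference of 0.17 (SE 0.18). Syn2, on the 1 of its 2 probes that was tested, read -3.35, -4.86 and -3.48 in mutants 1 to 3, against -2.89, -3.21 and -3.63 in controls 1 to 3, a difference of -0.65 (SE 0.43). It was lowest on mutant 2, where Timp4 was not. The Syn3 probes were well above background on 1 and 0 of the 6 arrays.

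Profiles most like the widest varying member of each family were sought among 14639 named features that were well above background on all arrays, by the root mean square distance between log2 profiles centred on their own means over the 6 arrays. For Adamts15 the nearest were Tspan15 at 0.0872, Col5a3 at 0.0978, Abcc9 at 0.144, Ly6c1 at 0.165 and Mndal at 0.167. Tspan15, a tetraspanin that pairs with ADAM10, read -1.74, -3.51 and -1.29 in mutants 1 to 3, against -1.00, -1.57 and -2.31 in controls 1 to 3. Col5a3, a fibrillar collagen chain, read 2.38, 0.70 and 2.65 in mutants 1 to 3, against 3.22, 2.43 and 2.07 in controls 1 to 3. For Timp4 the nearest were Dusp15 at 0.163, Map7d2 at 0.178, Asb9 at 0.182, Gm15612 at 0.185 and Lct at 0.190.

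Other genes of the aggrecanase and TIMP system were described by counts. Of 14 further ADAMTS proteases 12 were tested, 7 with a difference below 0 and 5 above, with a median of -0.15. Adamts16 at -0.29 (SE 0.16) and Adamts10 at 0.25 (SE 0.15) had the smallest p of these, and 0 of 12 had an unadjusted p below 0.05. The 7 ADAMTS-like proteins, which lack the protease domain, had a median of 0.27, and 0 of 7 had an unadjusted p below 0.05. Papln (papilin) at 0.94 (SE 0.52) and Adamtsl2, a microfibril-binding protein, at 0.27 (SE 0.28) had the smallest p of that list. Papln was well above background on 2 mutant and 1 control arrays.

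Substrates and their matrix partners gave 7 of 10 differences above 0, where 59.8% of all features were. Their median was 0.12, and 0 of 10 had an unadjusted p below 0.05. Of these 10 genes 6 were highest on mutant 2. Acan, the core protein of aggrecan, read 7.45, 7.89 and 7.51 in mutants 1 to 3, against 6.92, 7.36 and 7.50 in controls 1 to 3. Its difference of 0.36 (SE 0.20) leaned on mutant 2, the highest array, and control 1, the lowest, and the other 4 arrays lay close together. Bcan (brevican) had a difference of -0.55 (SE 0.38). Genes that activate or clear these proteins had a median of 0.22, with 9 of 10 above 0, against the same 59.8% of all features. Again 0 of 10 had an unadjusted p below 0.05. Sdc4 (syndecan 4), a proteoglycan linked to ADAMTS5 activation, stood at 0.37 (SE 0.21) and the endocytic receptor Lrp1, which clears ADAMTS5 and TIMP3, at 0.20 (SE 0.13). The list score was highest on mutant 2, at 0.41, against -0.20 to 0.00 on the other 5 arrays.

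Metalloproteinases that TIMPs inhibit had a median of -0.30, with 11 of 12 differences below 0, where 40.2% of all features were. The 12 include Adam10, whose lower signal follows from the design. Of the 12, 7 were lowest on mutant 2, as were 18.4% of all features. Of the 12, 2 had an unadjusted p below 0.05, both lower in mutants, where 1.77% of all features were, and 0 passed the adjusted threshold. One of them was Adam10, the targeted gene. The other was Mmp8, a collagenase of neutrophils, at -4.80, -4.40 and -3.59 in mutants 1 to 3, against -1.79, -2.76 and -0.15 in controls 1 to 3, a difference of -2.70 (SE 0.67, adjusted p 0.994 in limma). Mmp8 is also in the neutrophil marker list, which had a median of -1.67 and 9 of 9 tested genes below 0, and whose score was -1.51 to -0.28 in mutants, against 2.09, 1.09 and -0.77 in controls 1 to 3. Adam10, Mmp8 and Mmp9 were the 3 of 12 whose mutants all lay below the controls, where 3.53% of all features did. Mmp9, a gelatinase of osteoclasts and neutrophils, read 3.22, 0.47 and 3.27 in mutants 1 to 3, against 3.43, 4.23 and 3.90 in controls 1 to 3, a difference of -1.54 (SE 0.75). Mmp13, the collagenase of hypertrophic chondrocytes, read 4.34, 1.96 and 4.27 in mutants 1 to 3, against 3.79, 4.90 and 4.82 in controls 1 to 3, a difference of -0.98 (SE 0.68). Both were lowest on mutant 2. The sheddase Adam17 had a difference of -0.24 (SE 0.14) and Mmp2, a gelatinase of stromal cells, one of 0.18 (SE 0.17).

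The list of cytokines that induce aggrecanases and their receptors also held the transcription factor genes Nfkb1 and Rela. Il1a, Tnf, Il6 and Il17a did not pass the filter, which left 10 of 14 genes of the list. Of these, 7 were below 0, where 40.2% of all features were, and the median was -0.09. Il1b, the cytokine interleukin 1 beta, was the 1 member at an unadjusted p below 0.05, with -4.81, -5.01 and -4.35 in mutants 1 to 3, against -3.37, -3.46 and -3.80 in controls 1 to 3. Its difference was -1.18 (SE 0.21, adjusted p 0.994 in limma), and all 3 mutants lay below all 3 controls. The signal was dim, well above background on 2 of 3 mutants and 3 of 3 controls. Over all features 1.77% were lower at an unadjusted p below 0.05. The groups were also separate for Tnfrsf1b, a receptor of tumour necrosis factor, at -3.18, -4.58 and -2.85 in mutants 1 to 3, against -2.70, -2.46 and -2.72 in controls 1 to 3. Its difference was -0.91 (SE 0.43), with an interval that includes 0. Il1b and Tnfrsf1b were the 2 of 10 tested genes with separate groups, where 3.53% of all features had mutants below controls. The receptors Il1r1 and Tnfrsf1a each had a difference of -0.09 (SE 0.16 and SE 0.11).

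**Figure D4:**
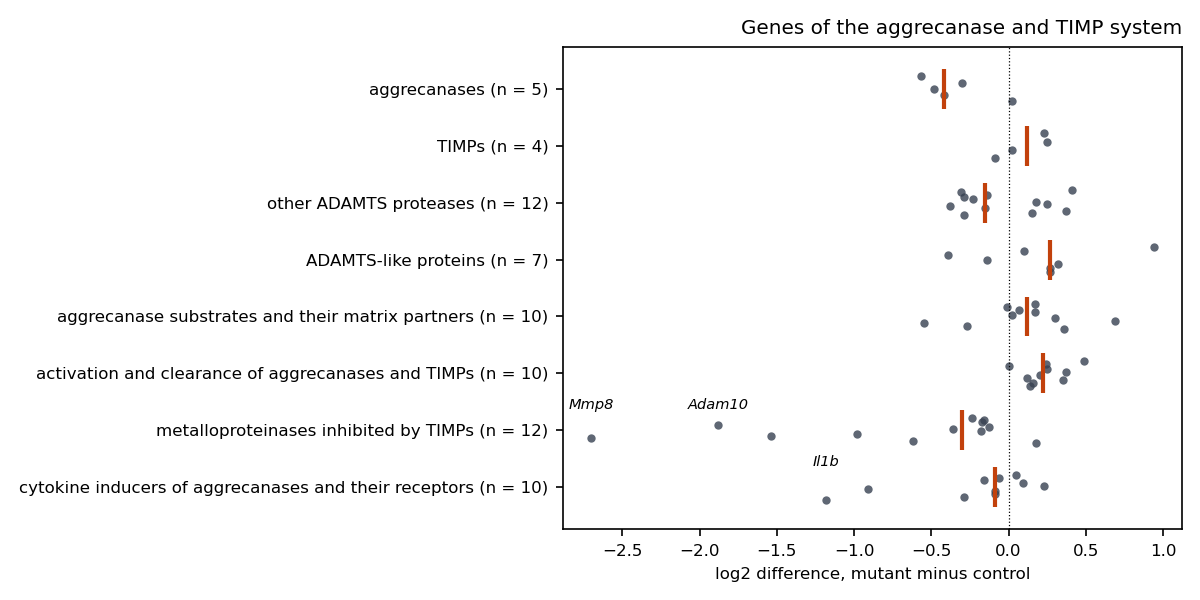
Log2 difference (x axis, mutant minus control) of every tested gene in the 2 families and in 6 related lists, 1 point per gene, with the list median as an orange line and genes at an unadjusted p below 0.05 named. The points of the 9 aggrecanases and TIMPs lie between -0.57 and 0.25, and the genes farthest to the left are Mmp8 at -2.70 and Adam10 at -1.88.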

How the data were processed

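The deposited scanner files hold intensity values that Agilent Feature Extraction 10.7.1.1 produced, per the file headers and the submitters' processing notes: a background-subtracted processed signal and raw median spot and background brightness, with no normalization between arrays. Per the labels' protocols the dye was Cy3, though a label field says Cy5. The authors' deposited value table holds a linear ratio of each feature to its column's 75th percentile, a scale inferred from the values. Its columns have a 75th percentile of 1 and medians of 0.094 to 0.104, and how it was made is not given in the sources used here.

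Outlier and control spots were left out, log2 processed signals were set relative to the 75th percentile over non-control spots of the array, and spots of a probe were averaged. Of 55681 probes, 27656 were named by accession through RefSeq. Those well above background on at least 3 arrays numbered 35236, of which 8 lacked a usable spot on an array. The brightest probe of each gene and every unnamed probe gave 30270 features, 15658 of them named, fitted with limma 3.58.1 in R 4.3.3 (two-sided, residual df 4, prior df 2.49). The group and replicate of each array came from its title. The fit was tested on simulated data with 200 changed features, using each feature's mean and within-group SD. At an adjusted p below 0.05 it recovered 0% of log2 changes of 1, 74.5% of 2 and 90% of 3. The members' differences of -0.57 to 0.25 were smaller in size than these, so 0 of 9 passing cannot show that these genes are unchanged. The number of arrays limits the precision.

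The 9 members, the gene lists and the tests were chosen with earlier results of these data known. Named are the members, Adam10, Col2a1, up to 4 genes per list at an unadjusted p below 0.05 or otherwise the 2 with the smallest p, and the 5 nearest profiles. Genes outside that rule (Xist, Ddx3y, Adamts8, Mmp2, Mmp9, Mmp13, Adam17, Il1r1, Tnfrsf1a, Tnfrsf1b, Il1a, Tnf, Il6, Il17a, Nfkb1, Rela and the synapsins) were chosen after their values were seen. Normexp used the median spot signal, since no mean signal is among the columns.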

Additional observations from a re-analysis of the deposited data

How the results depend on the processing

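With 3 mice a group the members had SEs of 0.13 to 0.62. Across all features, 0 passed an adjusted p below 0.05 in limma under any of the 21 alternatives. Adamts9 and Timp1 stayed below 0 and Timp3 above 0 throughout, at -0.48 to -0.21, -0.21 to -0.04 and 0.04 to 0.38. For the results below that turned or moved, the cause was not tested. With normexp and percentile scaling Timp2 was -0.01 and 323 features were higher at an unadjusted p below 0.05, where the reported fit had 495 higher and 537 lower. With normexp and quantile scaling Adamts1 was -0.02 and Timp2 -0.10, and with quantile scaling of the processed signal Timp2 was -0.04. Without a filter, which tests more features, 897 were higher and 930 lower. With array weights, which put mutant 2 at 0.31 and control 2 at 3.38, 1812 were higher and 2224 lower, Adamts1 was 0.00 on the negative side, Adamts4 and Adamts5 were -0.02, Adamts15 was -0.01, and 1 member, Adamts9 (-0.37, p 0.00951, adjusted p 0.279), had an unadjusted p below 0.05. Without both control 1 and mutant 2, 1209 were higher and 921 lower, 2 aggrecanases were below 0, Adamts5 was 0.06, Adamts15 0.45, and 2 members had an unadjusted p below 0.05, Adamts9 at -0.32 and Timp2 at 0.40. On the first row of the slide, which holds mutant 1 and the 3 controls, 195 features were higher, Adamts4 was 0.48 and Timp4 -0.02. The slide row as a block, an alternative chosen after seeing the data, gave 155 higher. The other row holds only mutants 2 and 3 and no control, so this block takes its differences from the first row alone. Its 0.48 and -0.02 are thus the same by construction, and both settings rest on mutant 1. On arrays with Ddx3y above Xist 1040 features were lower, Timp4 was -0.05 and 1 member, Adamts9, had an unadjusted p below 0.05.

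Leaving out single arrays gave 367 to 710 features higher and 253 to 852 lower (852 without mutant 3, 253 without control 2), 0 to 1 members at an unadjusted p below 0.05, 2 to 5 aggrecanases below 0 and 1 to 3 TIMPs above 0 (1 without control 2). The differences ranged from -0.23 to 0.17 for Adamts1, -0.87 to 0.15 for Adamts4, -0.79 to -0.03 for Adamts5, -1.00 to 0.10 for Adamts15, -0.12 to 0.23 for Timp2 and -0.02 to 0.60 for Timp4. The labels do not say whether replicate numbers pair the mice. Deviations of same-numbered arrays correlated at 0.17, 0.05 and -0.15, and those of differently numbered arrays at -0.22 to 0.23. With 3 arrays a group these correlations cannot decide whether mice were paired. With the replicate block 450 features were higher and 412 lower, 0 passed the adjusted threshold, and Adamts5 kept -0.48 with an unadjusted p of 0.0988.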
